A study of Mus musculus with 6 samples.

Results

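The translation initiation factor genes were taken from a table of gene counts by their symbols, as every row starting with Eif and a digit, without the Eif2ak kinases. The rule found 51 of 24421 rows. It used no measured value. The series holds RNA-seq of group 2 innate lymphoid cells (ILC2), tissue lymphocytes that lack antigen receptors and secrete type 2 cytokines. Brain cells of C57BL/6 mice, a standard inbred strain, were sorted on ILC2 surface markers and cultured for 2 weeks with 20% fetal calf serum and the factors SCF, IL-33, IL-2 and IL-7. Aged mice were 20 to 22 months old and young mice 2 to 3 months old, and each age had 3 libraries. Both groups received the same cytokines, and the cells were measured after expansion, not as they left the brain. Nothing in the labels ties a library to its own animal or culture, so every p-value here rests on a spread between libraries that can be technical.

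Initiation is the step at which a ribosome is placed on the start codon of an mRNA. eIF2 carries the initiator tRNA, and eIF2B reloads eIF2 with GTP, a reaction that stress kinases block. eIF3 is a scaffold of many subunits on the small ribosomal subunit, and eIF4F joins the cap-binding protein eIF4E, the helicase eIF4A and the scaffold eIF4G at the mRNA cap. Small 4E-binding proteins (4E-BPs) hold eIF4E inactive until the growth kinase mTORC1 phosphorylates them, and lymphocytes raise initiation when cytokines or antigen drive them to grow.

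The library totals ran from 16477157 to 20804291 counts. Values are CPM, counts relative to the library total, after TMM scaling, which centres most genes between libraries. The summed ILC2 markers were at 13105 to 15514 CPM in aged and 13099 to 16014 CPM in young libraries, with none of 12 at 0, and 2 rose and 5 fell. Markers of other cells moved with the groups in part. Summed dendritic cell markers, led by Batf3, were at 309.8 to 353.8 CPM in aged and 64.8 to 87.8 CPM in young libraries (1 of 4 tested markers rose; Clec9a and Siglech were at 0). Microglia and macrophage markers were at 50.9 to 85.3 CPM in aged and 7.42 to 17.9 CPM in young libraries (2 of 5 tested rose and 1 fell; Csf1r, C1qa and C1qc were at 0). B cell markers were at 41.0 to 62.1 CPM in aged and 13.7 to 22.9 CPM in young libraries (2 of 2 tested rose; Cd79a, Ms4a1 and Pax5 were at 0). Neural and endothelial markers, led by Pecam1, were at 143 to 182 CPM in aged and 84.4 to 138 CPM in young libraries. Of these, 1 of 2 tested rose, and Rbfox3, Aqp4, Mog and Cldn5 were at 0. Markers of T cells were at 6.76 to 14.7 CPM in aged and 6.78 to 13 CPM in young libraries, those of mast cells and basophils at 188 to 325 CPM in aged and 230.3 to 281 CPM in young libraries, and none of the tested ones changed. The 5 NK cell and ILC1 markers had 0 counts in all libraries. The part of other cells in the results below was not tested.

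Aged ILC2 cultures differed from young ones in many initiation factor genes, in both directions. The transcript of the eIF4E inhibitor 4E-BP1 (Eif4ebp1) was 3.35-fold higher in aged libraries, and that of eIF5A (Eif5a), the most abundant member, was 1.74-fold higher. The eIF3 subunit genes Eif3b, Eif3d and Eif3l were lower, at 0.413, 0.475 and 0.560 of the young level. These 5 changes passed the test in every one of the 16 alternative analyses run, in a comparison that called 19.4% of all genes tested. The RNA comes from whole cultures, where fewer cells of a type and less RNA per cell cannot be told apart.

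Of the 51 members, 47 passed the filter on low counts, of which 8 rose and 13 fell in aged cultures at an adjusted p under 0.05 (edgeR's quasi-likelihood test, Benjamini-Hochberg adjustment over all 11805 genes tested). The shares were 17% higher and 27.7% lower, where 11.2% and 8.14% of all genes tested were called. All 3 aged libraries lay above all young ones for 10 members (21.3%) and below them for 17 (36.2%), beside 19.3% and 18.8% of all genes (38.2% in either direction). The members are abundant, with a median of 151 CPM against 19.4 CPM over all genes tested, and abundant genes are called more often. In the most abundant of 5 equal classes of genes, 35.2% were higher and 9.66% lower in aged libraries. Of the 35 members in that class, 8 (22.9%) were higher and 12 (34.3%) lower. The median log2 change of the members was -0.20, beside -0.10 for all genes. The factor groups below are small, and their counts stand beside the shares of all genes given here.

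**Figure D1:**
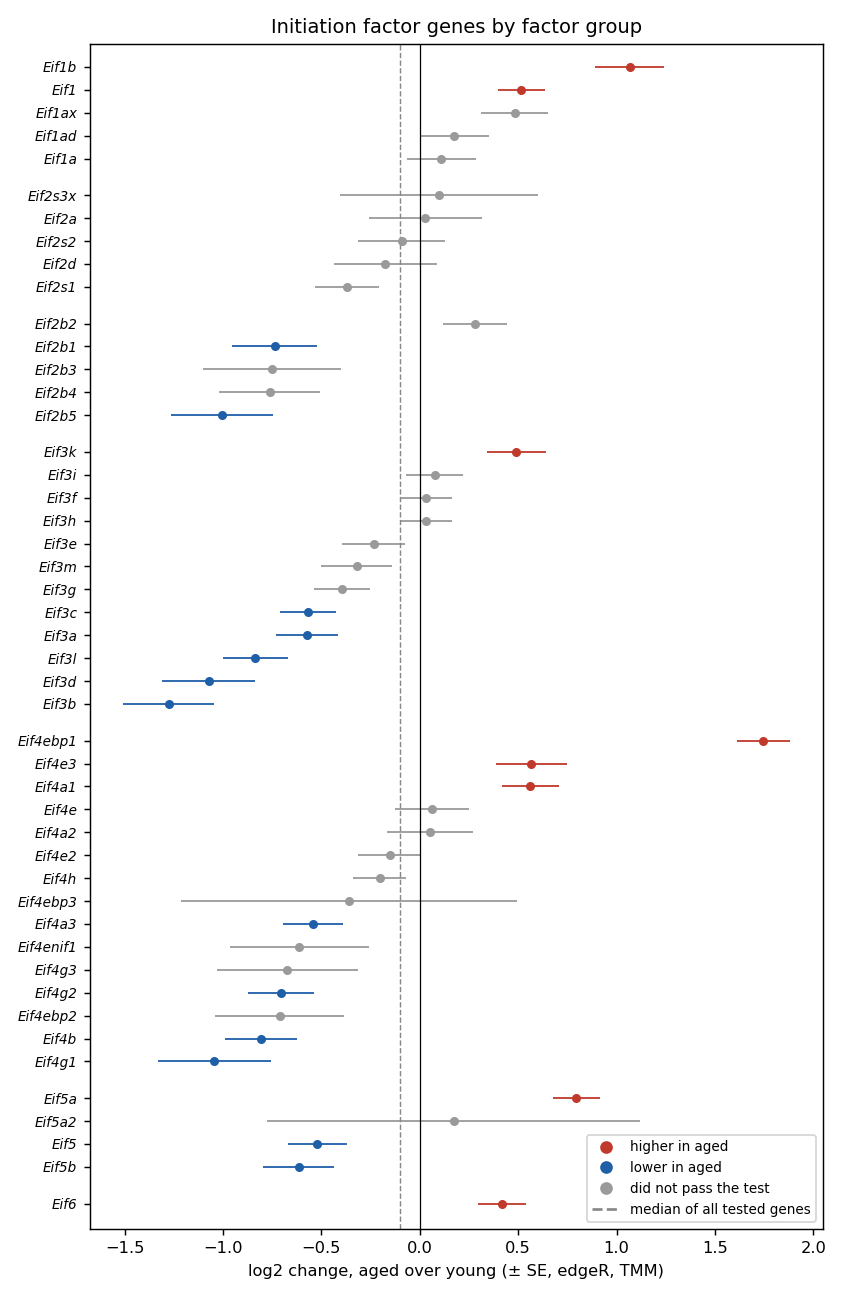
Log2 change of each tested initiation factor gene, aged over young, with its standard error, by factor group (Eif1 to Eif6, with Eif2b apart). Red and blue points passed the test, grey points did not, and the dashed line is the median of all genes at -0.10. Eif4ebp1 stands at 1.75, and the lowest point is Eif3b at -1.28.

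The direction of the smaller changes depended on the scaling. With library totals in place of TMM, the median log2 change of all genes moved to -0.52 and that of the members to -0.62, so changes here are relative to the TMM scaling. Under library totals, 24 members were lower and 3 higher, where 20.2% of all genes were lower and 6.08% higher. All 13 lower calls were among those 24, and the 3 higher ones were Eif1b, Eif4ebp1 and Eif5a. The members took 1.12 ± 0.0033% of all counts in aged and 1.28 ± 0.0175% in young libraries (SD, n = 3 each). On the TMM scale their sum was 12864, 13319 and 12715 CPM in aged libraries, against 10997, 11011 and 11267 CPM in young libraries. The sum was thus smaller in aged libraries as a share of counts and larger on the TMM scale.

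The eIF1 group acts in start codon selection, where eIF1 and eIF1A hold the ribosome in a scanning state. Of its 5 tested genes, 2 rose (40%, beside 11.2% of all genes tested) and none fell, with a median log2 change of 0.48. Eif1 stood at 951, 907 and 806 CPM in aged libraries, against 623, 633 and 608 CPM in young libraries. Its paralog Eif1b stood at 108, 124 and 132 CPM in aged libraries, against 57.6, 59.2 and 57.1 CPM in young libraries. The groups did not overlap for either gene. Eif1 rose by 0.52 ± 0.12 (SE) on the log2 scale (adjusted p = 0.0116) and Eif1b by 1.07 ± 0.18 (adjusted p = 0.00179). The call of Eif1 was lost under library totals (0.10) and without aged library 1, aged library 2 or young library 1 (adjusted p = 0.0501 to 0.0635). The X-linked Eif1ax was at 245, 312 and 299 CPM in aged libraries, against 201, 171 and 241 CPM in young libraries, and did not pass (log2 change of 0.48, adjusted p = 0.0711). Eif1a, and Eif1ad, a gene with an eIF1A-like domain, had log2 changes of 0.11 and 0.17.

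None of the 5 tested genes of the eIF2 group passed the test, and none had groups without overlap. The largest difference was in Eif2s1, the alpha subunit that stress kinases phosphorylate. It was at 188, 219 and 253 CPM in aged libraries, against 281, 249.8 and 321 CPM in young libraries, with a log2 change of -0.37 ± 0.16 (SE; adjusted p = 0.146). The highest aged library lay above the lowest young library. Eif2s2, the beta subunit, had a log2 change of -0.09. Eif2d, a factor that can deliver initiator tRNA without eIF2, was at 34.2, 62.5 and 51.8 CPM in aged libraries, against 48.1, 65.0 and 54.5 CPM in young libraries. Eif2a, another factor that acts apart from eIF2, had a log2 change of 0.03.

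The gamma subunit of eIF2 is encoded on both sex chromosomes in the mouse, by Eif2s3x and Eif2s3y. Eif2s3x was at 7.15, 9.76 and 9.34 CPM in aged libraries, against 8.66, 8.06 and 7.83 CPM in young libraries. Per kilobase of transcript that is 2.40 CPM in aged and 2.24 CPM in young libraries, while Eif2s1 stood at 64.5 and 83.4 and Eif2s2 at 99.5 and 106 CPM per kilobase in aged and young libraries. A predicted gene shares 37.0% of the Eif2s3x transcript nearly letter for letter, so its counts are uncertain. Eif2s3y and the other Y-linked genes Ddx3y, Uty and Kdm5d had 0 counts in all 6 libraries. Xist, the RNA that coats the inactive X chromosome, was at 230.2, 275 and 278 CPM in aged libraries, against 235, 188 and 323 CPM in young libraries. The labels do not give the sex of the mice. Xist without counts of these Y-linked genes is the pattern of female cells, and it held in all 6 libraries. The Xist values of the groups overlap.

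The exchange factor eIF2B is made of 5 subunits, and 2 of its 5 genes fell (40%, beside 8.14% of all genes tested). Eif2b5, the catalytic epsilon subunit, was at 33.4, 28.8 and 37.7 CPM in aged libraries, against 54.2, 88.3 and 57.9 CPM in young libraries. Eif2b1, the alpha subunit of the regulatory core, was at 59.9, 59.2 and 88.7 CPM in aged libraries, against 98.6, 122 and 126 CPM in young libraries. Both genes had groups without overlap, with the third aged library nearest to the young ones. Eif2b5 fell by 1.01 ± 0.26 (SE) on the log2 scale (adjusted p = 0.0193) and Eif2b1 by 0.74 ± 0.21 (adjusted p = 0.0337). The other subunit genes did not pass: Eif2b4 and Eif2b3 had log2 changes of -0.76 and -0.75, and Eif2b2 one of 0.28, with overlap between the groups only in Eif2b3. Removal of a library ended the call of Eif2b5 (aged 2 or young 2, adjusted p up to 0.105) and of Eif2b1 (any library but aged 3, adjusted p up to 0.121).

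Of the eIF3 subunit genes, 12 of 14 passed the filter, with a median log2 change of -0.36. Of these, 5 fell (41.7%, beside 8.14% of all genes tested) and 1 rose (8.33%, beside 11.2%). The genes that fell encode subunits from both parts of the complex. Eif3b belongs to the module near the mRNA entry site, Eif3d binds the cap of selected mRNAs, and Eif3a, Eif3c and Eif3l belong to the ring-like core of PCI and MPN domain subunits. Eif3b on chromosome 5 (140419328 to 140443360, GRCm38) was at 108, 98.5 and 86.4 CPM in aged libraries, against 253, 301 and 155 CPM in young libraries. Eif3d on chromosome 15 (77958998 to 77970813) was at 63.1, 87.7 and 99.4 CPM in aged libraries, against 187, 213 and 126 CPM in young libraries. In both genes the third young library lay lowest of the young ones, and still above every aged library. Eif3l on chromosome 15 (79075179 to 79094405) was at 137, 139 and 178 CPM in aged libraries, against 244, 303 and 264 CPM in young libraries.

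Eif3b fell by 1.28 ± 0.23 (SE) on the log2 scale (adjusted p = 0.00308), Eif3d by 1.07 ± 0.24 (adjusted p = 0.00882) and Eif3l by 0.84 ± 0.16 (adjusted p = 0.0049). These 3 calls held without any single library. An opposite-strand predicted gene covers 32.9% of the Eif3d exons, so part of its counts may belong to that gene. Eif3a, the largest subunit, was at 124, 115 and 126 CPM in aged libraries, against 197, 159.8 and 186 CPM in young libraries. Eif3c was at 203, 216 and 234 CPM in aged libraries, against 354, 319 and 297 CPM in young libraries. Eif3a and Eif3c fell by 0.57 each, with groups that did not overlap (adjusted p = 0.0267 and 0.0164). Removal of aged library 1, aged library 2 or young library 1 ended both calls, and removal of young library 3 ended that of Eif3a (adjusted p up to 0.163 for Eif3a and 0.121 for Eif3c).

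Eif3k, the smallest subunit of the core, ran against this direction. It was at 500.4, 543 and 662 CPM in aged libraries, against 381, 372 and 460.4 CPM in young libraries, a rise of 0.49 ± 0.15 (SE) on the log2 scale (adjusted p = 0.0418). The call was lost under library totals (log2 change of 0.08) and without aged library 2, aged library 3, young library 1 or young library 2 (adjusted p up to 0.164). The remaining subunit genes Eif3e, Eif3f, Eif3g, Eif3h, Eif3i and Eif3m did not pass, with log2 changes from -0.40 in Eif3g to 0.08 in Eif3i. Of these, only Eif3g had groups without overlap. Per kilobase of transcript, the 12 detected subunit genes spanned 23.7 CPM (Eif3a) to 625 CPM (Eif3k) in aged libraries and 35.3 to 445 CPM, in the same genes, in young libraries. Subunit transcripts thus spanned a wider range within either age than any of them did between the ages.

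**Figure D2:**
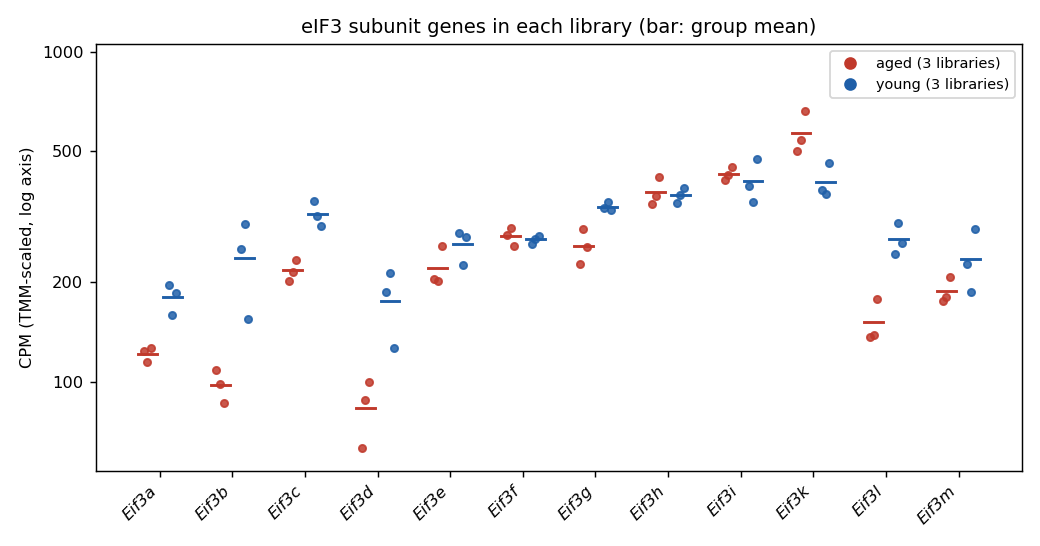
CPM of the 12 detected eIF3 subunit genes in each library on a log axis, aged left of young, with bars at the group means. Eif3b, Eif3d and Eif3l lie lower in all 3 aged libraries, Eif3k lies higher, and Eif3f, Eif3h and Eif3i overlap.

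The eIF4 group acts at the mRNA cap, and its 15 tested genes had a median log2 change of -0.36. Of these, 3 rose (20%, beside 11.2% of all genes tested) and 4 fell (26.7%, beside 8.14%). In the most abundant class of all genes, 35.2% were higher and 9.66% lower. The clearest change was in the inhibitor. Eif4ebp1, on chromosome 8 (27260329 to 27276674, GRCm38), encodes 4E-BP1, which binds eIF4E and keeps it from eIF4G. It was at 1045, 1034 and 841 CPM in aged libraries, against 292, 295 and 284 CPM in young libraries. The young libraries lay within a narrow band, and the lowest aged library was far above it. Eif4ebp1 rose by 1.75 ± 0.13 (SE) on the log2 scale (adjusted p = 1.24e-05), and from 1.33 to 1.84 over the alternatives. The other 4E-BP genes were scarce. Eif4ebp2 was at 20.7, 18.5 and 20.3 CPM in aged libraries, against 44.2, 22.0 and 31.1 CPM in young libraries. It lay lower in every aged library without passing the test (log2 change of -0.71, adjusted p = 0.164). Eif4ebp3 was at 1.19 to 4.92 CPM in aged and 3.76 to 4.68 CPM in young libraries, and 67.3% of its exons overlap a same-strand gene.

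Eif4e, the cap-binding protein itself, was at 123, 144 and 152 CPM in aged libraries, against 115, 122 and 165 CPM in young libraries. The groups overlapped, and the log2 change was 0.06 ± 0.19 (SE; adjusted p = 0.870). Of its relatives, Eif4e3 was at 144, 151 and 166 CPM in aged libraries, against 119, 109 and 83.8 CPM in young libraries. Eif4e3 rose by 0.57 on the log2 scale (adjusted p = 0.0498), a call that ended without any of the 6 libraries (adjusted p = 0.0671 to 0.117) and under library totals (log2 change of 0.15). Eif4e2, a cap-binding protein that takes part in repression, had a log2 change of -0.15, and Eif4enif1, which carries eIF4E into the nucleus, of -0.61, and neither passed.

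The ratio of Eif4ebp1 to Eif4e counts within a library needs no scaling between libraries. It was 8.49, 7.16 and 5.53 in aged libraries, against 2.54, 2.42 and 1.72 in young libraries. Every aged library lay above every young library, and the geometric mean of the ratio was 3.17-fold higher in aged ones (two-sided exact permutation p = 0.1 over 20 arrangements, the smallest that 3 against 3 allows). On the log2 scale it was 2.80 ± 0.31 in aged and 1.13 ± 0.31 in young libraries (SD, n = 3 each).

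Among the RNA helicases, Eif4a1, the main helicase of eIF4F, rose, and Eif4a3 fell. Eif4a1 was at 680.2, 837 and 797 CPM in aged libraries, against 489, 469 and 612 CPM in young libraries. Eif4a3, which belongs to the exon junction complex and not to eIF4F, was at 194, 159 and 198 CPM in aged libraries, against 245, 282 and 275 CPM in young libraries. Neither gene had overlapping groups, and the log2 changes were 0.56 ± 0.15 and -0.54 ± 0.15 (SE; adjusted p = 0.0201 and 0.0273). Eif4a2, the paralog of Eif4a1, was at 59.0, 59.4 and 65.3 CPM in aged libraries, against 58.3, 47.7 and 71.4 CPM in young libraries, with overlapping groups. The ratio of Eif4a2 to Eif4a1 counts was 0.0867, 0.0709 and 0.0820 in aged libraries, against 0.119, 0.102 and 0.117 in young libraries (two-sided exact permutation p = 0.1, n = 3 each). A pseudogene copy covers 68.7% of the Eif4a1 transcript, which leaves its counts uncertain. The call of Eif4a1 was lost under library totals (log2 change of 0.15) and without aged library 2, young library 1 or young library 2 (adjusted p up to 0.105). The call of Eif4a3 was lost without any library but aged 3 (adjusted p up to 0.114).

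Eif4g1, Eif4g2 and Eif4b fell, while the helicase gene Eif4a1 rose and Eif4a2 did not pass the test. These 3 falls no longer passed once a trend on transcript length and GC content was removed (below). Eif4g1, the main scaffold, was at 44.9, 33.7 and 77.7 CPM in aged libraries, against 108, 121 and 94.0 CPM in young libraries. Eif4g2, a relative that lacks the eIF4E site and serves cap-independent initiation, was at 185, 131 and 181 CPM in aged libraries, against 293, 262 and 257 CPM in young libraries. Eif4b, a cofactor of the helicase, was at 78.2, 75.4 and 63.2 CPM in aged libraries, against 134, 134 and 111 CPM in young libraries. In these 3 genes every aged library lay below every young library. They fell by 1.05 ± 0.29, 0.71 ± 0.17 and 0.81 ± 0.18 (SE) on the log2 scale (adjusted p = 0.0257, 0.0136 and 0.00978). Eif4h, a further helicase cofactor, lay lower in every aged library, with a log2 change of only -0.20 (adjusted p = 0.345).

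Eif4g3, the paralog of Eif4g1, was at 16.3, 21.3 and 18.1 CPM in aged libraries, against 34.7, 37.0 and 17.2 CPM in young libraries, with the third young library among the aged ones (log2 change of -0.67, adjusted p = 0.230). The ratio of Eif4g3 to Eif4g1 counts was 0.363, 0.633 and 0.233 in aged libraries, against 0.321, 0.307 and 0.183 in young libraries. These overlapped (two-sided exact permutation p = 0.4, n = 3 each), and the log2 difference of 0.52 shrank to 0.15 without aged library 2. Removal of a library ended the calls of Eif4g1 (aged 1, aged 2, young 1 or young 2, adjusted p up to 0.088), Eif4g2 (aged 2 or young 1, up to 0.0852) and Eif4b (young 1, 0.062).

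**Figure D3:**
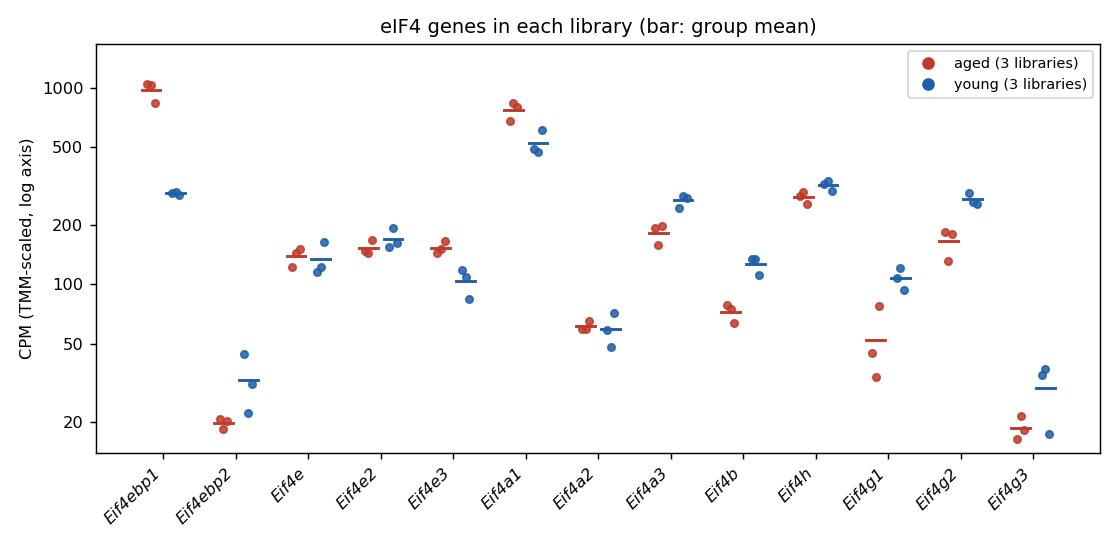
CPM of 13 eIF4 genes in each library on a log axis, aged left of young, with bars at the group means. Eif4ebp1 lies at 841 to 1045 CPM in aged and 284 to 295 CPM in young libraries, while Eif4e overlaps and Eif4b, Eif4g1 and Eif4g2 lie lower in aged libraries.

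**Figure D4:**
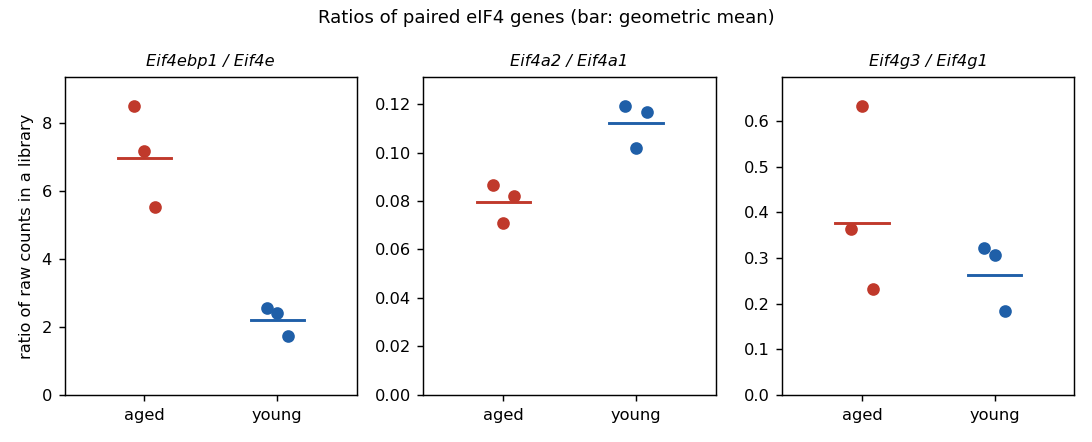
Ratio of raw counts of paired eIF4 genes in each library, aged left of young, with bars at the geometric means. The ratio of Eif4ebp1 to Eif4e runs from 5.53 to 8.49 in aged and from 1.72 to 2.54 in young libraries, and the ratio of Eif4g3 to Eif4g1 overlaps.

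The last factors act at and after start codon recognition. Eif5a, on chromosome 11 (69916714 to 69921958, GRCm38), encodes the hypusine-bearing protein that helps ribosomes past stalling sequences. It was at 3837, 3955 and 3054 CPM in aged libraries, against 2025, 2154 and 2074 CPM in young libraries, and rose by 0.79 ± 0.12 (SE) on the log2 scale (adjusted p = 0.000985). The aged libraries all lay above the young ones, and the call held in every alternative, with log2 changes from 0.37 under library totals to 0.90. Annotated copies share 32.2% of its transcript. Its paralog Eif5a2 was scarce, at 9.14, 3.17 and 1.33 CPM in aged libraries, against 4.95, 1.30 and 5.85 CPM in young libraries.

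Eif5, which triggers GTP hydrolysis by eIF2, and Eif5b, which joins the ribosomal subunits, both fell. Eif5 was at 269, 206 and 271 CPM in aged libraries, against 349.8, 349.7 and 371 CPM in young libraries. Eif5b was at 75.2, 66.9 and 86.4 CPM in aged libraries, against 120.3, 107 and 123 CPM in young libraries. The groups were separate, with log2 changes of -0.52 ± 0.15 and -0.62 ± 0.18 (SE; adjusted p = 0.0311 and 0.0344). Both calls ended without any library but aged 3 (adjusted p up to 0.125 for Eif5 and 0.149 for Eif5b). Eif6, which keeps the large ribosomal subunit from joining too early, was at 564, 599 and 533 CPM in aged libraries, against 437, 427 and 408 CPM in young libraries. It rose by 0.42 ± 0.12 (SE) on the log2 scale (adjusted p = 0.0348). Its call ended without aged library 1, aged library 2, young library 1 or young library 2 (adjusted p up to 0.131), and under library totals its log2 change was -0.004.

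Across all genes of these libraries short transcripts were higher and long ones lower in aged cultures, and the members followed the same pattern in part. Spearman's correlation of log2 change with transcript length was -0.38 over the 47 members and -0.37 over 11703 genes, as a description, since genes of a library share its RNA quality and preparation. With all genes in 5 equal classes by length, the median log2 change was 0.51 in the shortest class. Of the 13 members there, 5 rose and 1, Eif4a3, fell. Of all genes in that class, 31.1% were higher and 3.42% lower. In the longest class the median was -0.50, and 4 of 9 members fell and none rose. Of all genes in the longest class, 12.2% were lower and 2.35% higher. With a trend on transcript length and GC content removed from each library, 10 members were lower and 5 higher, where 5.31% of all genes were lower and 10.4% higher. The lower calls of Eif2b1, Eif2b5, Eif3b, Eif3d, Eif3l and Eif4a3 were kept, and Eif2b4, Eif3e, Eif3g and Eif3m were added.

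The lower calls of Eif3a, Eif3c, Eif4b, Eif4g1, Eif4g2, Eif5 and Eif5b were lost under this correction, with log2 changes of -0.001, -0.12, -0.29, -0.46, -0.06, -0.18 and 0.05. Among the genes that rose, Eif4a1, Eif4e3, Eif4ebp1 and Eif5a stayed higher (log2 changes of 0.56, 0.74, 1.84 and 0.46) and Eif1ax was added at 0.92. The rises of Eif1, Eif1b, Eif3k and Eif6 no longer passed, with log2 changes of 0.24, 0.53, -0.12 and 0.05. For the eIF3 group this left 6 lower and 0 higher genes, with a median log2 change of -0.50. Of the eIF4 group 1 was lower and 3 were higher.

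**Figure D5:**
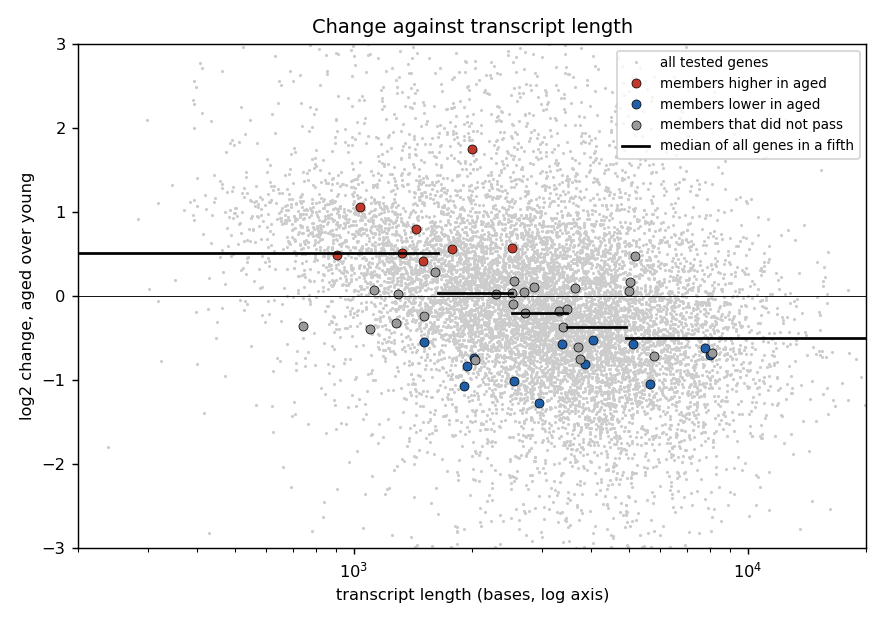
Log2 change, aged over young, against transcript length on a log axis, for all tested genes (light grey) and the initiation factor genes (coloured by call). Black bars give the median of all genes in each of 5 length classes, from 0.51 in the shortest to -0.50 in the longest. Eif4ebp1 at 1.75 and Eif3b at -1.28 lie far from the bar of their length. Genes beyond a log2 change of 3 in either direction or beyond the length axis are not drawn.

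Promoter windows of RefSeq (build GRCm38.p6; 250 bases before to 50 after a start) were found for 39 of the 51 members. The E-box CACGTG, which reads the same on both strands and is bound by MYC and related factors, occurred in a window of 10 of 39 members (25.6%) and of 11.9% of tested genes with a window. Of the 8 members that rose, 5 had a window, and Eif4ebp1 was among those without one. By call, among members with a window, it occurred in 4 of 5 that rose, 2 of 12 that fell and 4 of 20 that did not pass. Its share among all genes that rose was not counted, and a link between the E-box and the change was not tested. Eif5a has several annotated starts, so it had more windows to match. Other patterns searched on both strands were nearer the background: GGGCGG in 79.5% of members and 69.2% of tested genes, TGATGNAA in 2.56% and 2.72%, and the NRF1 core in 2.56% and 2.49%. The E-box of Eif3a, which fell, lies after its start. Those before a start of members that changed are shown, because 4 of the 5 risen genes with a window have one. Each is given 5′ to 3′ on the gene's strand with the E-box in capitals, and none overlaps another pattern searched. Of several E-boxes in Eif5a 1 is shown:
Eif1b, chr9:120492570-120492599, plus strand: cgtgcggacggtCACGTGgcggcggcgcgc
Eif3k, chr7:28981915-28981944, minus strand: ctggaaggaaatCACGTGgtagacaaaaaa
Eif4a1, chr11:69672595-69672624, minus strand: cgatcgcctccgCACGTGtaaaggtgctgg
Eif5a, chr11:69921443-69921472, minus strand: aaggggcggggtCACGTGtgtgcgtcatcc
Eif4g1, chr16:20672661-20672690, plus strand: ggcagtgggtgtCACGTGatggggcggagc

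These E-boxes lie 24, 44, 189, 74 and 54 bases before an annotated start in the order given, and those of Eif1b, Eif5a and Eif4g1 fall inside the gene's span in GENCODE, ahead of an internal start. A terminal oligopyrimidine (TOP) start, a C followed by at least 4 pyrimidines, places an mRNA under mTORC1 control through LARP1. The pattern was found at an annotated start in 2 of 39 members (5.13%) and in 3.14% of tested genes. A TOP start away from the annotated one, or in a member without a window, would be missed. The first 20 bases are shown with the pyrimidine run in capitals:
Eif3f, chr7:108934415-108934434, plus strand: CTCTCTTTCTCggcaagatg
Eif2s3x, chrX:94212632-94212651, minus strand: CTTTTCTCTCCgagcaagat

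Neither of these genes passed the test. Eif3f was at 278, 293 and 257 CPM in aged libraries, against 262, 271 and 277 CPM in young libraries, with a log2 change of 0.03 ± 0.13 (SE). How TOP mRNAs as a class changed was not tested.

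Of 54 tested partner genes in neighbouring steps, 3 rose and 7 fell, or 5.56% and 13%, where 11.2% and 8.14% of all genes tested did. The lists below are short, and their counts stand beside these same shares of all genes. Among 8 genes of the eIF2 alpha kinases, their phosphatase subunits and their outputs, Atf4 alone changed. Atf4, the transcription factor made when eIF2 is phosphorylated, was at 559, 664 and 695 CPM in aged libraries, against 302, 297 and 338 CPM in young libraries (adjusted p = 0.000457). Ppp1r15b, which brings the phosphatase to eIF2, and the kinase Eif2ak1 had log2 changes of -0.80 and -0.50 and did not pass. The kinase genes Eif2ak2, Eif2ak3 and Eif2ak4 averaged 9.92, 8.15 and 6.28 CPM in aged and 10.1, 6.93 and 5.39 CPM in young libraries, and did not pass.

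In the list of 14 genes that carry mTORC1 and MNK signals to eIF4F, 2 fell and none rose. Larp1, the TOP mRNA repressor, was at 75.9, 83.4 and 69.9 CPM in aged libraries, against 179, 184 and 138 CPM in young libraries, a fall of 1.13 ± 0.18 (SE) on the log2 scale (adjusted p = 0.00147). Tsc1, an inhibitor of mTORC1, had 0, 0 and 14 counts in aged libraries, against 174, 416 and 169 counts in young libraries (adjusted p = 0.0185, or 0.0873 without young library 2). The change of Rps6kb1, the S6 kinase gene, was -0.75 on the log2 scale, short of the threshold (adjusted p = 0.0567), and Mtor was at 11.9 and 14.0 CPM on average in aged and young libraries.

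Of 10 poly(A) and cap-binding partners, 1 fell. Pabpc1, the main poly(A)-binding protein, was at 234, 227 and 269.6 CPM in aged libraries, against 353, 391 and 337 CPM in young libraries (adjusted p = 0.0163, lost without aged library 1, aged library 2, young library 1 or young library 2, up to 0.077). Ncbp1 and Dap, which did not pass, had log2 changes of -0.53 and 0.34. Of 9 scanning and recycling genes, Mcts1, which recycles the small subunit with Denr, rose by 0.99 and the helicase Dhx29 and Abcf1, a partner of eIF2, fell by 1.5 and 1.04 on the log2 scale (adjusted p = 0.00197, 0.0257 and 0.0134). Dhx29 was lost without aged library 2 or any of the young libraries (adjusted p up to 0.101), and Abcf1 without aged library 2, young library 1 or young library 2 (up to 0.0673).

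Of 13 elongation and termination genes 1 rose and 2 fell. Eef1b2, an exchange factor of elongation, was at 749, 858 and 814 CPM in aged libraries, against 575, 546 and 656 CPM in young libraries (adjusted p = 0.030). The release factor genes Etf1 and Gspt1 fell by 0.77 and 0.74 on the log2 scale (adjusted p = 0.00942 and 0.0402). The call of Eef1b2 ended without aged library 2, aged library 3, young library 1 or young library 2 (adjusted p up to 0.138) and under library totals (log2 change of 0.03), and that of Gspt1 without any library but aged 3 (up to 0.158). With the length and GC trend removed, Mcts1 (log2 change of 0.20), Dhx29 (-0.89), Pabpc1 (-0.22), Etf1 (-0.36) and Gspt1 (-0.30) no longer passed.

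The 4 members that did not pass the filter on low counts, Eif2s3y, Eif3j1, Eif3j2 and Eif4e1b, had 0 counts in all 6 libraries, which allows up to 0.0657 CPM over the aged and 0.0473 CPM over the young group (3 counts over a group, counting error only). Eif4e1b is an eIF4E relative known from oocytes. Eif3j1 and Eif3j2 encode the loosely bound eIF3 subunit j, and other genes, each other among them, share 62.3% of the Eif3j1 transcript and 100% of that of Eif3j2 nearly letter for letter. A count of 0 for such copies does not show that they are silent. Further members with at least 10% of the transcript copied in, or overlapped by, other genes have uncertain counts for that reason: Eif3m (92.8%), Eif2s2 (39.0%), Eif1 (25.9%), Eif5b (21.2%), Eif4e3 (18.4%), Eif1ad (16.7%), Eif4a2 (15.5%), Eif4ebp1 (13.8%), Eif4e (13.1%) and Eif2b4 (10.1%).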

How the data were processed

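Total RNA of 6 libraries was sequenced single-end with reads of 75 bases, per the design text. The authors deposited raw counts per gene symbol, not normalized. Per the submitters' processing notes, the build was mm10 and the tools included DESeq2 1.1, Cufflinks 2.0 and STAR 2.5.3a. What counted the reads, with which annotation and strand setting, is not given in the sources used here, so reads of overlapping or antisense genes may be mixed.

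The test was edgeR 4.0.16 in R 4.3.3: filterByExpr (minimum count 10, minimum total 15; 11805 of 24421 rows kept), TMM factors (0.866 ± 0.023 in aged and 1.16 ± 0.030 in young libraries, SD, n = 3 each), glmQLFit and glmQLFTest, and Benjamini-Hochberg adjustment at 0.05. The SE is the log2 change divided by the root of F. Symbols of 27 rows had become dates, with 0.153% of counts. They stayed in the tests and are not named. Lengths, GC content and coordinates come from GENCODE vM21 (GRCm38; longest coding transcript; 98.3% of symbols matched). Near-identical copies are BLAST 2.17.0 matches of at least 75 bases at 97% identity. No 2 libraries of an age agreed within counting noise (chi-square over degrees of freedom, 35.7 to 89.2). The test was checked on simulated counts.

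The members, partner lists and alternatives were chosen with earlier results of these data known. Values in every library are given for members past the threshold, and for a fixed set whatever their p. In a factor group with no such member, the 2 with the smallest p are shown. Of each partner list up to 3 are named by smallest p. Other genes were named after their values were seen. The alternatives were DESeq2 1.42.0, limma-voom (limma 3.58.1), other scalings and filters, robust dispersion, length and GC offsets (mgcv 1.9.3), a replicate block and leaving out each library.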

Additional observations from a re-analysis of the deposited data

How the results depend on the processing

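For all genes, 1325 higher and 961 lower, the counts were 718 and 2380 with library totals, 627 lower with length and GC offsets and 469 lower with those offsets and the replicate block, and leaving out a library gave 939 to 1358 higher and 432 to 887 lower. For the members, 8 higher and 13 lower, they were 3 and 24 with library totals, 5 higher with length and GC offsets, 5 and 8 with those offsets and the replicate block, and 3 to 8 higher and 4 to 14 lower without a library. For the partner genes, 3 higher and 7 lower, they were 6 higher with DESeq2, 23 lower with library totals, 4 lower with length and GC offsets, 5 and 1 with those offsets and the replicate block, and 2 to 6 higher and 3 to 7 lower without a library, where fewer libraries also lower the power. Among the 21 called members, the log2 changes that turned sign in an alternative were those of Eif3a (0.002 with offsets and block), Eif3k (-0.118 with offsets, -0.132 with offsets and block), Eif5b (0.051 and 0.047) and Eif6 (-0.004 with library totals). Of the 26 members that did not pass, 16 turned sign in at least 1 alternative, and of these Eif3f passed the test with the turned sign (-0.386 with library totals, adjusted p = 0.0437). The cause was not tested. The 3 ratios kept their sign in all alternatives. The main test did not pair the libraries by replicate number. Deviations of same-numbered libraries correlated at 0.009 to 0.041 and those of others at -0.027 to 0.012, and 5 of 6 correlated best with their own number. Correlations this small do not settle whether the numbers mark pairs. With the replicate block 6 members were higher and 13 lower, of 1208 and 800 genes. The block ended the calls of Eif4e3 (adjusted p = 0.0758), Eif6 (0.0585), Dhx29 (0.0542) and Eef1b2 (0.0534), and that of Eif6 also ended with no filter on low counts (0.0526). The ratios had a paired sign-flip p of 0.25, the smallest possible (exact). Members under 10 CPM, such as Eif2s3x, had standard errors of 0.50 or more, so small changes in them could not be detected here.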
